A study of Mus musculus with 16 samples.

Results

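Mast cell genes were followed in 2 fat depots, subcutaneous (SAT) and visceral (VAT), of mice that were lean or obese. The set holds 9 genes that mark mast cells: the granule proteases Cpa3, Cma1, Mcpt4, Tpsb2 and Tpsab1, the growth factor receptor Kit, the IgE receptor chains Ms4a2 and Fcer1a, and the histamine-making enzyme Hdc. They were found in the expression table by gene symbol, through the RefSeq accession of each entry, and had 19 of its 130343 entries. These 9 genes are among 35556 symbols in the table. RNA came from 8 male wild-type C57BL/6J mice, kept on their diets from 10 weeks of age. A normal laboratory diet was given to 4 (lean). The other 4 were given a high-fat diet in which fat supplied 42% of calories and cholesterol made up 0.2% (obese). After 12 to 14 months each mouse gave 1 library of inguinal SAT, left and right depots joined, and 1 of mesenteric VAT, so that 16 libraries formed 4 groups of 4. Whole tissue was sequenced after poly(A) selection, so fewer cells of a type and less RNA per cell cannot be told apart.

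Mast cells arise from blood progenitors that settle in connective tissue and mucosa, where the receptor tyrosine kinase Kit and its ligand keep them alive. Their granules store proteases bound to heparin, together with histamine, and release them when antigen crosslinks IgE on the high-affinity IgE receptor. In the mouse, connective tissue mast cells carry the chymases Mcpt4 and Cma1 (also called Mcpt5), the carboxypeptidase Cpa3 and tryptases, while mucosal mast cells carry Mcpt1 and Mcpt2. Adipose tissue holds mast cells of the connective tissue kind, mostly near vessels. The authors cut visible vessels away from the fat by hand before RNA extraction, and what this did to mast cell levels was not tested.

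Total counts ranged from 1256082 (VAT, lean mouse 1) to 16614407 (SAT, obese mouse 3), and the next shallowest library held 2247737 (VAT, obese mouse 1). Both shallow libraries are VAT, and values in CPM (counts scaled to the library total, here also divided by edgeR's TMM scaling factor) rest on few counts there: 1 count equals 0.796 CPM in the first and 0.445 CPM in the second before that factor. The depots differed as their labels say. The summed CPM of 5 mesothelial markers was between 239 and 589 in VAT and at most 0.845 in SAT, and 6 adipocyte markers summed to at least 15168 CPM in every library. Nothing in the labels ties libraries to an extraction or sequencing day.

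The 3 genes with most counts lie on 2 chromosomes of GRCm39. Mcpt4 (14:56297086-56299770, minus strand, 5 exons) and Cma1 (14:56178908-56182132, minus strand, 5 exons) belong to the chymase cluster, and Cpa3 (3:20269774-20296362, minus strand, 11 exons) lies alone among the genes followed here. Their promoters are shown because, of the 9 genes, these 3 had the differences that passed a test below. Each line gives the 250 bases before the RefSeq start site, 5′ to 3′ on the gene's strand, taken from the RefSeq promoter table of GRCm38.p6 and placed by exact match in GRCm39 at chr14:56299768-56300017 for Mcpt4, chr14:56182133-56182382 for Cma1 and chr3:20296346-20296595 for Cpa3. Capitals mark the GATA motif, searched on both strands as GATA with A or T before it and A or G after it. GATA2 is a transcription factor of the mast cell lineage that binds such motifs.
Mcpt4: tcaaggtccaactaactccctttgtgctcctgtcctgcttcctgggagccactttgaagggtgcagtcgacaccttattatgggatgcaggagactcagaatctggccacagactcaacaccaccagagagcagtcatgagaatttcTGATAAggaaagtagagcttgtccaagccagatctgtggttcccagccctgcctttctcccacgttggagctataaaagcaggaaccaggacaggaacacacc
Cma1: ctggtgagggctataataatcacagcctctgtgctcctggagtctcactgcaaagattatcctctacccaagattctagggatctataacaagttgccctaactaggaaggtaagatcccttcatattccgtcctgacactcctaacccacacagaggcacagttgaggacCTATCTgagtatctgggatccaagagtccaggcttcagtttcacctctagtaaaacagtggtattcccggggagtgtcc
Cpa3: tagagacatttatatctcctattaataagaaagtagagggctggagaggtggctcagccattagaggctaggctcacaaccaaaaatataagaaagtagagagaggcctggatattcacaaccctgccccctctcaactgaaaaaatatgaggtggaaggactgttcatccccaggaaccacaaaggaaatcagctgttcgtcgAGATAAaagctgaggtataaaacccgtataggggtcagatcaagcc
Each of these windows held 1 match, 103 bases before the start site in Mcpt4, 79 in Cma1 and 46 in Cpa3. The table held a promoter for 7 of the 9 genes and none was printed for Tpsb2 and Tpsab1. A match was present in Fcer1a, Hdc and Ms4a2 as well, with 3 in Ms4a2, and there was none in the windows of Kit. At least 1 match was held by 26.5% of the 32851 RefSeq promoters. CATGTG, an E-box bound by the mast cell factor MITF, occurred among these genes in Fcer1a and in 12.3% of all promoters. A match is a stretch of letters and no measure of binding.

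Granule proteases made up nearly all the mast cell counts. Over the 16 libraries Mcpt4 had 4764 counts, Cma1 3300 and Cpa3 1124, against 119 for Kit, 99 for Hdc, 94 for Tpsab1, 60 for Tpsb2, 22 for Fcer1a and 5 for Ms4a2. Per kilobase of transcript, Mcpt4 averaged 26.8 CPM in SAT of lean mice, Cma1 17.6 and Cpa3 3.64, whereas each of the other genes averaged at most 0.640. Cma1 had fewer counts than Mcpt4 in 15 of 16 libraries and Cpa3 fewer than Cma1 in 16 of 16. The place of Cpa3 and the order below it are not firm, since the entries of Cpa3, Tpsb2, Kit, Ms4a2, Fcer1a and Hdc share sequence with other entries of the same gene and the handling of shared reads is not stated in the sources used here. A low count of such a gene is therefore not read as low expression.

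**Figure D1:**
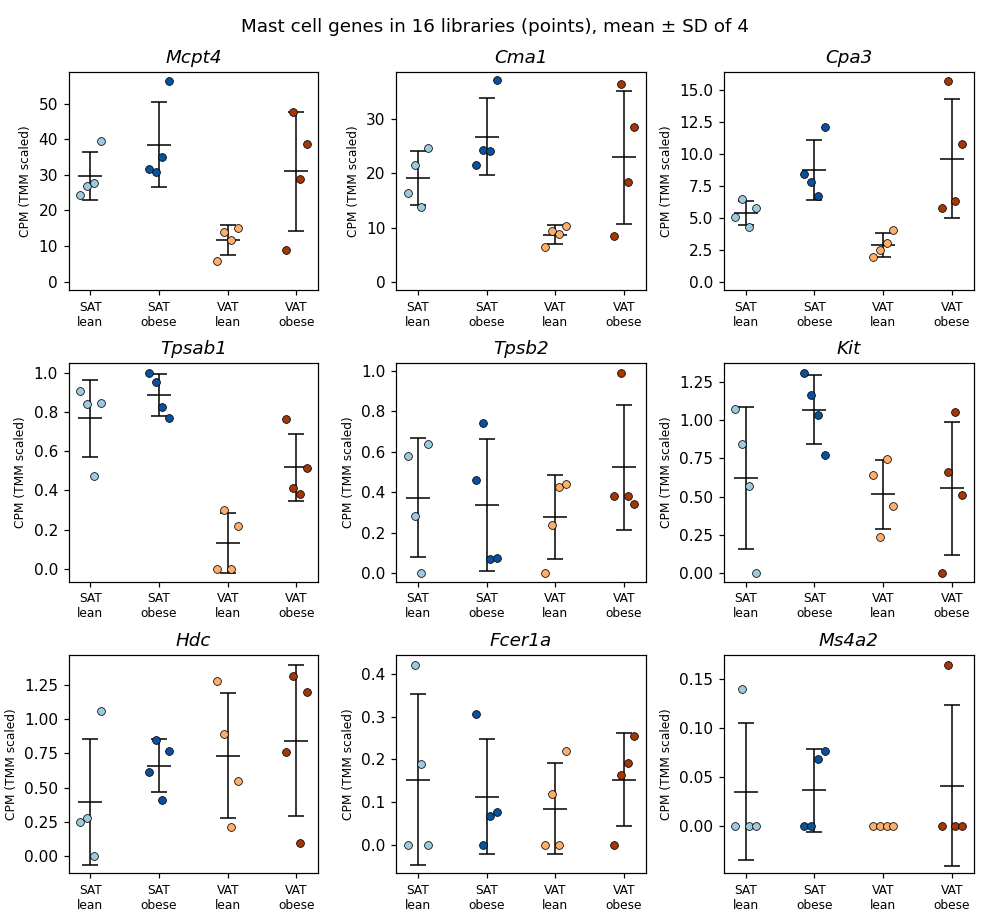
CPM (TMM scaled, linear axes that differ between panels) of the 9 mast cell genes in the 4 groups; points are libraries, bars the mean ± SD of 4. Mcpt4, Cma1 and Cpa3 stand lowest in lean VAT, at means of 11.6, 8.71 and 2.85 CPM, and the other 6 genes average at most 1.07 CPM in every group.

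The comparison of obese with lean mice asked how the mast cell transcripts responded to the long high-fat diet in each depot. In VAT the 3 protease transcripts were upregulated: Cpa3 by 1.72 on the log2 scale, Cma1 by 1.39 and Mcpt4 by 1.36. Kit and Hdc did not pass the test. Of the 9 genes, 5 had an entry above 1 CPM in at least 3 of 16 libraries and could be tested (Mcpt4, Cma1, Cpa3, Kit and Hdc), with the first 3 above 1 CPM in all 16 libraries and Kit and Hdc in 4 each. The 3 calls among 5 tested entries stand against 10.9% of all 13288 tested entries called in VAT, and 6.82% called higher (edgeR, Benjamini-Hochberg adjusted p below 0.05).

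Cpa3, an exopeptidase stored with heparin in the granule, was at 1.91, 2.44, 2.99 and 4.07 CPM in VAT of lean mice 1 to 4 and at 5.72, 15.7, 6.30 and 10.7 CPM in VAT of obese mice 1 to 4. Every obese library lay above every lean one, as it did for 8.32% of all tested entries. The difference of 1.72 (SE 0.30), 3.30-fold, had an adjusted p of 5.62e-04 in edgeR.

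Mcpt4, a chymotrypsin-like protease regarded as the mouse counterpart of human chymase, was at 5.74, 14.0, 11.8 and 15.1 CPM in lean VAT and at 8.77, 47.6, 28.9 and 38.7 CPM in obese VAT. The groups overlapped, because obese mouse 1 lay among the lean libraries while the other 3 obese libraries lay above them. edgeR gave 1.36 (SE 0.32), 2.57-fold, with an adjusted p of 0.00655.

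Cma1, an elastase-like protease of the same cluster, was at 6.37, 9.35, 8.76 and 10.3 CPM in lean VAT and at 8.39, 36.6, 18.3 and 28.6 CPM in obese VAT. Here too obese mouse 1 lay among the lean libraries. The difference was 1.39 (SE 0.30), 2.63-fold, with an adjusted p of 0.00310 in edgeR.

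The lowest library of each VAT group was also its shallowest for Mcpt4, Cma1 and Cpa3. Lean mouse 1 had 9 counts of Mcpt4, 10 of Cma1 and 3 of Cpa3, and obese mouse 1 had 23, 22 and 15. With both mice left out, a fit chosen after the depth was seen, the differences were 1.47 for Mcpt4, 1.53 for Cma1 and 1.77 for Cpa3, at adjusted p of 6.44e-04, 0.00106 and 0.00189 in edgeR.

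Markers of other cells moved in the same comparison. In VAT 5 macrophage markers summed to between 2130 and 2842 CPM in lean and 4367 and 6750 CPM in obese mice, and 4 of 4 tested entries were called higher. The 8 lymphocyte markers summed to 47.3 to 263 CPM in lean and 237 to 414 CPM in obese VAT (4 of 7 tested entries higher), and the adipocyte markers to 20841 to 34268 and 15168 to 25966 CPM (6 of 13 tested entries lower). Of 8 intestinal epithelial markers the sum was 18.9 to 70.8 CPM in lean and 19.1 to 26.3 CPM in obese VAT, with 3 of 8 tested entries lower. The part of these cells in the protease difference was not tested. Basophils and eosinophils share some of these genes with mast cells. The 3 basophil markers summed to 0 to 0.427 CPM in lean and 0.286 to 0.493 CPM in obese VAT, with Mcpt8 at 0 in every VAT library. The 5 eosinophil markers summed to 0 to 3.19 CPM in lean VAT, highest in mouse 1, the shallowest library. In obese VAT they summed to 1.14 to 1.45 CPM, and Epx was at 0 in all 16 libraries. Medians in lean and obese VAT were 0.0298 and 0.361 CPM for basophils and 0.348 and 1.41 CPM for eosinophils. None of these markers passed the filter, and such low counts are not read as absence. The part of basophils and eosinophils in the protease difference was not tested.

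In SAT no mast cell entry passed the test, against 11.0% of all tested entries (edgeR). At an unadjusted p below 0.05 there was 1, Cpa3, and DESeq2 and limma voom also called 0. Cpa3 was at 5.02, 6.45, 4.28 and 5.72 CPM in lean SAT and at 8.44, 7.82, 6.67 and 12.1 CPM in obese SAT, without overlap. Of all tested entries 9.62% had every obese library above every lean one. The difference of 0.74 (SE 0.28) had an adjusted p of 0.0888 in edgeR. Fitted on the 8 SAT libraries alone, its adjusted p was 0.0405. Mcpt4 was at 24.2, 26.9, 27.8 and 39.6 CPM in lean and 31.7, 30.9, 34.9 and 56.4 CPM in obese SAT. The groups overlapped, and the difference was 0.39 (SE 0.30, adjusted p 0.454 in edgeR). Cma1 was at 16.5, 21.6, 13.8 and 24.8 CPM in lean and 21.5, 24.4, 24.1 and 37.2 CPM in obese SAT, a difference of 0.50 (SE 0.28, adjusted p 0.266 in edgeR), with overlap. Without obese mouse 4, the highest in SAT for the 3 genes, the differences were 0.15 for Mcpt4, 0.30 for Cma1 and 0.55 for Cpa3. The macrophage sum was 1228 to 1686 CPM in lean and 1909 to 2847 CPM in obese SAT.

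**Figure D2:**
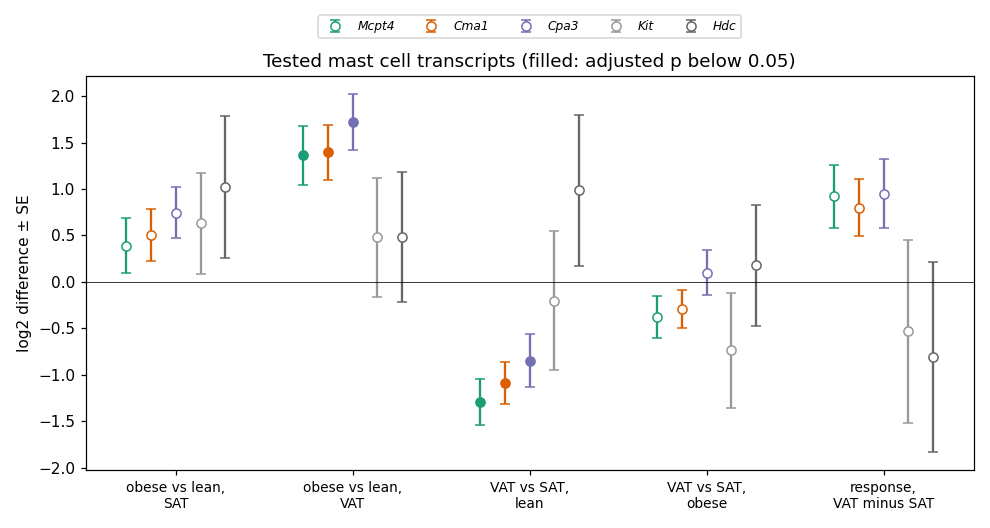
Log2 differences ± SE from edgeR for the 5 tested mast cell transcripts in 5 comparisons; filled points have an adjusted p below 0.05. The filled points are Mcpt4, Cma1 and Cpa3 in obese against lean VAT, at 1.36 to 1.72, and in VAT against SAT of lean mice, at -1.30 to -0.85.

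The comparison of VAT with SAT from the same mouse asked whether the depots differ in their mast cell transcripts. In lean mice the 3 proteases were lower in VAT, Mcpt4 by a log2 difference of -1.30 (SE 0.25), Cma1 of -1.09 (SE 0.23) and Cpa3 of -0.85 (SE 0.29). The adjusted p values were 6.14e-04, 0.00162 and 0.0490 in edgeR with the mouse as a block. For each of the 3 genes all 4 lean mice had less in VAT than in SAT and the groups of libraries did not overlap. Means fell from 29.7 ± 6.83 to 11.6 ± 4.17 CPM for Mcpt4 and from 19.2 ± 4.97 to 8.71 ± 1.69 CPM for Cma1 (SD, n = 4). For Cpa3 the means were 5.37 ± 0.933 CPM in SAT and 2.85 ± 0.923 CPM in VAT. Of all tested entries 14.8% were called in this comparison, 6.84% as lower in VAT, and 8.82% had every VAT library below every SAT library. Markers of other cells differed in the same comparison. In VAT of lean mice 4 of 8 tested entries of intestinal epithelial markers were higher (Epcam, Slc5a1, Muc2 and Zg16), 5 of 7 of lymphocytes, 3 of 4 of macrophages and 6 of 6 of mesothelium, and 3 of 13 of adipocytes were lower. The intestinal markers summed to 20.0 to 30.7 CPM in lean SAT, with Fabp2 and Slc5a1 at 0, and to 18.9 to 70.8 CPM in lean VAT. Their part in the protease difference was not tested.

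The Cpa3 call in lean mice stands at the threshold. Without the mouse block its adjusted p was 0.101, and leaving out any lean mouse gave an adjusted p between 0.0596 and 0.267, the highest without lean mouse 2 (log2 difference -0.64). Mcpt4 and Cma1 were called in each of 17 alternative fits.

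In obese mice no mast cell entry was called between the depots, where 29.4% of all tested entries were (edgeR). None of the 5 had an unadjusted p below 0.05, and DESeq2 and limma voom called 0. The log2 differences were -0.38 (SE 0.23, adjusted p 0.231) for Mcpt4, -0.29 (SE 0.21, adjusted p 0.311) for Cma1 and 0.10 (SE 0.24, adjusted p 0.795) for Cpa3 in edgeR. VAT was the higher depot in 1 of 4 obese mice for each of the 3 genes, and it was mouse 2 each time. Without that mouse Mcpt4 was lower in VAT by a log2 difference of -0.74 (adjusted p 0.0176) and Cma1 of -0.62 (adjusted p 0.0338 in edgeR), and Cpa3 turned to -0.23. Without obese mouse 1, whose VAT library is shallow, the differences were -0.10 for Mcpt4 and -0.09 for Cma1 (adjusted p 0.768 and 0.778).

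**Figure D3:**
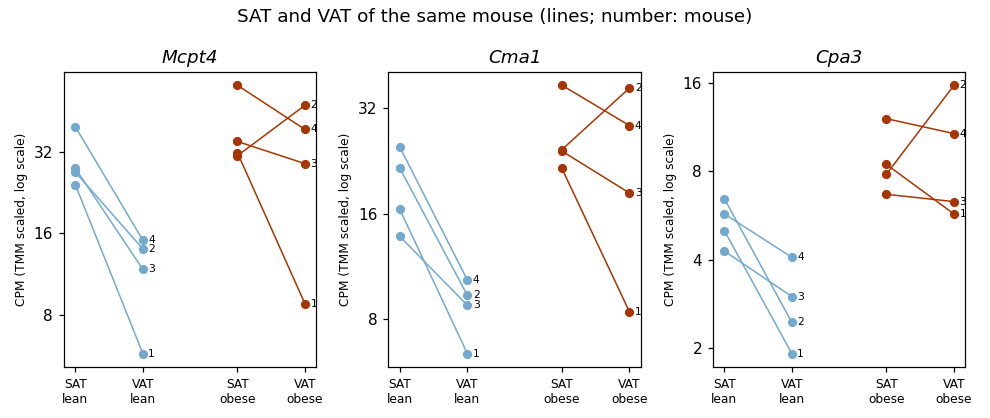
CPM (TMM scaled, log axis) of Mcpt4, Cma1 and Cpa3 in SAT and VAT, with a line joining the 2 depots of a mouse and the mouse's number at its VAT value. All lines of lean mice fall from SAT to VAT, and among obese mice the line of mouse 2 rises for the 3 genes while the others fall.

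Whether the diet response itself differed between depots was tested as the VAT response minus the SAT response within 1 fit. It was 0.92 (SE 0.34) for Mcpt4, 0.80 (SE 0.31) for Cma1 and 0.95 (SE 0.37) for Cpa3 on the log2 scale. The adjusted p values of 0.172, 0.201 and 0.213 in edgeR did not pass, so the larger values in VAT are not shown to differ from those in SAT. The 3 had an unadjusted p below 0.05, limma voom called 0 and DESeq2 called 0 (with no adjusted p for 2 of the 5 entries), and 2.17% of all tested entries were called. Leaving out obese mouse 1, whose VAT library is shallow, gave Mcpt4 a difference of 1.20 at an adjusted p of 0.0283. Leaving out obese mouse 2 gave 0.55 for Mcpt4 (adjusted p 0.446), 0.47 for Cma1 and 0.62 for Cpa3 in edgeR. These comparisons share libraries, so that lean VAT enters the VAT response, the depot difference of lean mice and this difference alike.

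Cma1 and Mcpt4 varied together across libraries, Cpa3 less closely. The ratio of Cma1 to Mcpt4 counts was between 0.495 and 1.11 with a median of 0.689, while Mcpt4 ranged from 5.74 to 56.4 CPM. The ratio of Cpa3 was between 0.144 and 0.652 to Mcpt4 counts and between 0.231 and 0.682 to Cma1 counts. Pearson's r of log2 CPM over 16 libraries was 0.964 for Cma1 and Mcpt4, 0.902 for Cma1 and Cpa3 and 0.830 for Mcpt4 and Cpa3. With the group means removed the same values were 0.931, 0.856 and 0.776. The libraries share depth and scaling, and these values are descriptions. Cpa3 had a pooled ratio to Mcpt4 counts of 0.185 in lean SAT, 0.225 in obese SAT, 0.222 in lean VAT and 0.293 in obese VAT, and its highest ratio in a library, 0.652, came from VAT of obese mouse 1 with 15 Cpa3 counts.

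**Figure D4:**
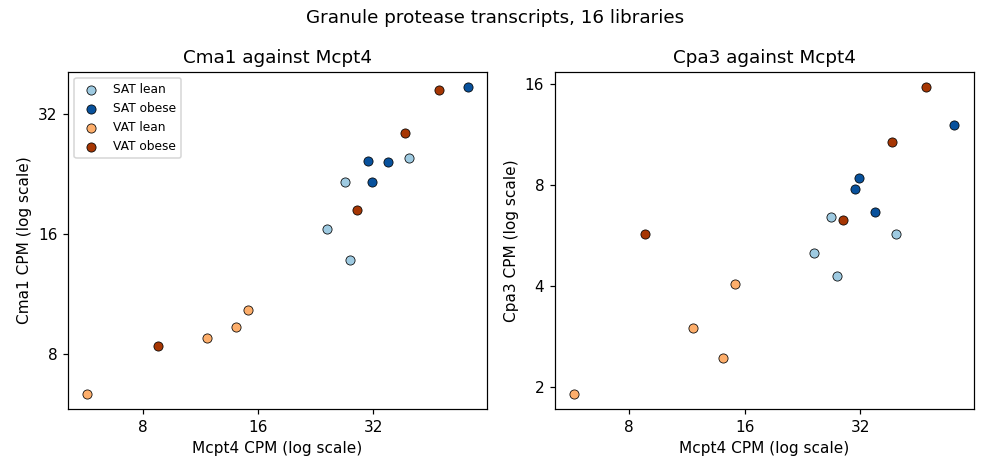
CPM (TMM scaled, log axes) of Cma1 (left) and Cpa3 (right) against Mcpt4 in 16 libraries, coloured by group. Cma1 follows Mcpt4 closely (r = 0.964), Cpa3 less so (r = 0.830), and obese VAT spans 8.77 to 47.6 CPM of Mcpt4.

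The tryptases gave few counts. Tpsab1 (17:25562212-25564541, minus strand) had 94 counts on its only entry, NR_033521, which carries a non-coding RefSeq accession; the gene is known to be defective in C57BL/6 mice. It averaged 0.767 ± 0.197 CPM in lean SAT, 0.886 ± 0.106 in obese SAT, 0.129 ± 0.153 in lean VAT and 0.517 ± 0.173 in obese VAT (SD, n = 4). VAT libraries were below SAT libraries without overlap in either diet, as were 8.82% of all tested entries in lean and 14.2% in obese mice. In obese mice the margin was small: the highest VAT library, mouse 1 with 2 counts, was at 0.762 CPM and the lowest SAT library at 0.769 CPM. Yet 2 lean VAT libraries were at 0, and in the shallowest of them a count of 0 allows up to 2.39 CPM (3 counts, counting error only). The entry did not reach the filter. When counts were summed per symbol, which leaves out entries with no symbol from the library totals, it did, and edgeR gave -2.16 (SE 0.77, adjusted p 0.0604) for VAT against SAT in lean mice, -0.83 (SE 0.59, adjusted p 0.309) in obese mice and 1.31 (SE 0.64, adjusted p 0.219) for obese against lean VAT. Tpsb2 (17:25585170-25588079, plus strand), the other tryptase, had its 60 counts on XM_006523740 and 0 on its other 2 entries. Its group means lay between 0.276 and 0.523 CPM and the groups overlapped in every comparison.

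The receptors and the histamine enzyme had few counts. Kit (5:75735576-75817404, plus strand, 21 exons) averaged 0.620 ± 0.461 CPM in lean SAT, 1.07 ± 0.227 in obese SAT, 0.516 ± 0.225 in lean VAT and 0.555 ± 0.434 in obese VAT (SD, n = 4), all on NM_001122733, with overlap in every comparison. Its differences were 0.63 (SE 0.55) between diets in SAT and 0.48 (SE 0.64) in VAT, with adjusted p of 0.520 and 0.716 in edgeR. With 1 mouse left out they ran from 0.34 (without lean mouse 4) to 1.01 (without lean mouse 1) in SAT and from 0.09 (without obese mouse 3) to 0.88 (without lean mouse 3) in VAT. Hdc (2:126435558-126461318, minus strand, 12 exons) converts histidine to histamine and averaged 0.397 ± 0.459, 0.660 ± 0.191, 0.733 ± 0.456 and 0.842 ± 0.551 CPM in the same order. Its differences between diets, 1.02 (SE 0.77) in SAT and 0.48 (SE 0.70) in VAT, did not pass (adjusted p 0.444 and 0.740 in edgeR). Between the depots, Kit was at -0.20 (SE 0.75) in lean and -0.74 (SE 0.62) in obese mice, and Hdc at 0.98 (SE 0.82) and 0.18 (SE 0.65), none called. With 1 mouse left out Kit between depots ran from -0.63 to 0.48 in lean and from -1.12 to -0.455 in obese mice. Leaving out 1 mouse moved Hdc between depots in lean mice from 0.61 to 2.13 and between diets in SAT from 0.51 to 1.86, in both cases highest without lean mouse 4, and between diets in VAT from 0.13 (without obese mouse 2) to 0.90 (without obese mouse 3), with no call. Fcer1a (1:173048851-173054781, minus strand), the IgE-binding chain, had 22 counts and group means of 0.0848 to 0.153 CPM. Ms4a2 (19:11592887-11601083, minus strand), the signal-amplifying chain, had 5 counts on 2 of its 5 entries and 0 in lean VAT. Neither was compared, with so few counts.

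Among 16 other genes known from mast cells 3 passed the filter and none was called in the 5 comparisons by edgeR or limma voom, nor by DESeq2 where it gave an adjusted p (it gave none for 2 of the 3 in the difference of responses). The shares of all tested entries called were 11.0%, 10.9%, 14.8%, 29.4% and 2.17%, so 0 calls among so few entries sets the list apart in no comparison. There were 1, 2, 1, 0 and 0 at an unadjusted p below 0.05 in edgeR for the diets in SAT, the diets in VAT, the depots in lean mice, the depots in obese mice and the difference of responses. Mrgprb2, the receptor through which peptides and drugs activate mast cells without IgE, averaged 0.60 CPM in lean SAT, 1.59 in obese SAT, 0.353 in lean VAT and 0.902 in obese VAT. Its difference between diets was 1.80 (SE 0.59, adjusted p 0.0505) in VAT and 1.28 (SE 0.47, adjusted p 0.0863) in SAT in edgeR. Mrgprb1, a related receptor, averaged 3.87, 5.04, 2.08 and 3.44 CPM in the same order, with 1.16 (SE 0.47, adjusted p 0.121) between diets in VAT and -1.10 (SE 0.39, adjusted p 0.0633) between depots in lean mice. Slc18a2, the vesicular monoamine transporter that loads histamine into granules and is used by neurons too, averaged 6.67 to 8.78 CPM. The mucosal proteases had few counts, with 5 of Mcpt1, 1 of Mcpt2 and 0 of Mcpt9 over 16 libraries.

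Genes that act downstream of the IgE receptor are for the most part used by macrophages and lymphocytes as well. Of 13 such genes 8 passed the filter, of which 4 were upregulated in SAT (Lcp2, Plcg1, Plcg2 and Syk) and 5 in VAT of obese mice (Fcer1g, Lat2, Lcp2, Plcg2 and Syk) by edgeR, which called 11.0% and 10.9% of all tested entries. DESeq2 and limma voom each called 4 in SAT, and in VAT they called 4 and 6. The median log2 difference of the 8 was 0.58 in SAT and 1.28 in VAT, against 0.01 and 0.02 over all tested entries. Fcer1g, the chain shared by the IgE receptor and other Fc receptors, averaged 58.1 ± 8.09 CPM in lean SAT, 78.0 ± 8.90 in obese SAT, 58.7 ± 11.2 in lean VAT and 151 ± 37.9 in obese VAT (SD, n = 4). It rose by 1.39 (SE 0.17, adjusted p 7.12e-06) in VAT, and its response was larger in VAT than in SAT by 0.94 (SE 0.19, adjusted p 0.00777 in edgeR), the 1 call among 8 in the list for that difference, against 2.17% of all tested entries. Syk, the kinase recruited to that chain, rose by 0.98 (SE 0.27) in SAT and 1.29 (SE 0.26) in VAT, and Plcg2, a phospholipase, by 0.98 (SE 0.26) and 1.26 (SE 0.25). Lcp2, an adaptor, rose by 0.53 (SE 0.17) and 1.18 (SE 0.17), Plcg1 by 0.36 (SE 0.11) in SAT, and Lat2 by 1.89 (SE 0.59) in VAT, where its means were 0.367 and 1.05 CPM. In the same comparisons 4 of 4 tested macrophage entries were called higher in obese SAT and 4 of 4 in obese VAT, and lymphocyte entries 0 of 7 in SAT and 4 of 7 in VAT. Their part in these differences was not tested.

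Between depots the same list had calls in both directions. In lean mice Plcg2 (1.62, SE 0.20), Syk (1.38, SE 0.24) and Lcp2 (0.53, SE 0.16) were higher in VAT and Plcg1 (-0.36, SE 0.11) lower, 4 calls among 8 in edgeR, against 14.8% of all tested entries. In obese mice Plcg2 (1.91), Syk (1.69), Btk (1.39), Lcp2 (1.18) and Fcer1g (0.94) were higher in VAT and Plcg1 (-0.63) and Gab2 (-0.56) lower, 7 calls among 8 (DESeq2 called 6 and limma voom 7), against 29.4% of all tested entries. The macrophage sum was higher in VAT than in SAT in both diets, and the lymphocyte sum was 10.4 to 24.7 CPM in SAT against 47.3 to 414 CPM in VAT. In obese mice 11 of 13 adipocyte entries were called lower in VAT and 6 of 6 mesothelial entries higher. The part of these cells in the depot differences was not tested.

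Genes of heparin and serglycin synthesis, which build the granule matrix that holds the proteases but are used by many cells, were represented by 10 tested entries of 9 genes out of 11. In SAT of obese mice Hs6st1 (0.78, SE 0.12), Xylt1 (0.81, SE 0.22), Ext1 (0.44, SE 0.11) and an entry of Glce (1.05, SE 0.32) were upregulated. Another tested Glce entry, at 0.61 (SE 0.52, adjusted p 0.514 in edgeR) in SAT, was not called. Hs6st1 (0.65, SE 0.12) and Xylt1 (0.86, SE 0.22) were upregulated in VAT. These are 4 and 2 calls among 10 entries, against 11.0% and 10.9% of all tested entries, and the median log2 difference of the 10 was 0.54 in SAT and 0.07 in VAT. Xylt1 adds the first sugar of the chain and Hs6st1 a sulfate group. In both depots 4 of 4 tested macrophage entries were higher in the same comparison, and in VAT 4 of 7 of lymphocytes were higher and 6 of 13 of adipocytes lower. In SAT 8 skeletal muscle markers summed to 4.03 to 8.74 CPM in lean and 1.69 to 2.38 CPM in obese mice. Of their 2 tested entries 1, Tnnc2, was called lower in obese SAT. Their part in these differences was not tested. No entry was called in the depot comparisons or the difference of responses by edgeR, with 2, 0 and 2 at an unadjusted p below 0.05 for lean mice, obese mice and the responses. Of all tested entries 14.8%, 29.4% and 2.17% were called in these comparisons. DESeq2 and limma voom each called 1 in lean mice and 0 in the others, where DESeq2 gave no adjusted p for 7 of the 10 entries in the difference of responses.

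Of 8 genes that break down, carry or sense histamine 4 were tested. None was called between diets by edgeR, against 11.0% of all tested entries in SAT and 10.9% in VAT (1 in SAT and 2 in VAT had an unadjusted p below 0.05), though DESeq2 and limma voom each called 1 in SAT and 0 in VAT. Between depots 2 of the 4 were called in either diet, against 14.8% of all tested entries in lean and 29.4% in obese mice. Hal, which diverts histidine to urocanate, was higher in VAT by 3.74 (SE 0.61) in lean and 3.18 (SE 0.49) in obese mice. It averaged 0.191 and 0.252 CPM in SAT and 2.60 and 2.34 CPM in VAT, and the groups overlapped in lean mice. Lean SAT held 7 counts of Hal in all, and the highest lean VAT library, mouse 1 at 5.74 CPM, rested on 9 counts. Slc22a3, an organic cation carrier that takes up histamine, was lower in VAT by a log2 difference of -0.43 (SE 0.11) in lean and -0.94 (SE 0.11) in obese mice, with means of 417 and 521 CPM in SAT and 308 and 273 CPM in VAT. For the difference of responses edgeR called 0 of the 4, against 2.17% of all tested entries (1 at an unadjusted p below 0.05). DESeq2, with no adjusted p for 2 of the 4, and limma voom called 1 each. In the depot comparisons 6 of 6 mesothelial entries were called higher in VAT in either diet. Lymphocyte entries were higher for 5 of 7 in lean and 7 of 7 in obese mice, and macrophage entries for 3 of 4 and 4 of 4. Adipocyte entries were lower for 3 of 13 and 11 of 13. Their part in the depot differences of Hal and Slc22a3 was not tested.

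Of 13 genes for Kit ligand, mast cell cytokines and growth signals 4 were tested, with 6 entries (Csf2rb, Sh2b3, Stat5b and Tslp). None was called in the 5 comparisons by edgeR or limma voom, nor by DESeq2 in the 4 in which it gave adjusted p values (it gave none for these 6 entries in the difference of responses). The shares of all tested entries called were between 2.17% and 29.4%, and 0 of 6 is not read as a difference from them. At an unadjusted p below 0.05 there were 2 in SAT between diets and 0 in the others. Csf2rb, the shared receptor chain for IL-3 and GM-CSF, was at 1.13 (SE 0.40, adjusted p 0.0750) between diets in SAT and 0.81 (SE 0.44, adjusted p 0.277) in VAT by edgeR.

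The entries whose log2 CPM followed the mean standardised level of the 5 tested mast cell transcripts most closely over 16 libraries were Nup93 (r = 0.867), Vhl (0.851), Cstb (0.845), 4930486L24Rik (0.845), Ccrl2 (0.837), Htra3 (0.834), Wdtc1 (0.832), Gpr1 (0.822), Gm39393 (0.821) and Rell1 (0.821). With the group means removed these values lay between 0.483 for Rell1 and 0.843 for Nup93. Nup93 averaged 0.639 CPM, Ccrl2 0.830 and Gpr1 0.834, while Vhl averaged 149 CPM, Htra3 135 and Cstb 111. For the mast cell entries themselves, each of which is part of that mean, r was 0.959 for Cma1, 0.911 for Cpa3, 0.883 for Mcpt4, 0.415 for Kit and 0.297 for Hdc. For Kit and Hdc, with 0 to 17 counts in a library, counting error limits what r can show. It was -0.34 between them and -0.02 to 0.29 between either and Mcpt4, Cma1 or Cpa3.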

How the data were processed

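RNA of 16 libraries, inguinal SAT and mesenteric VAT of 4 lean and 4 obese mice, was sequenced after a directional poly(A) library kit. The authors trimmed paired reads with Trim Galore 0.6.6, aligned them with HISAT2 2.2.0 to GRCm39 with its RefSeq annotation and counted them with HTSeq 0.13.5, and they deposited raw counts and CPM per RefSeq entry (130343 entries). The deposited CPM equal counts over library totals to within 4.95e-10 and carry no TMM factor. The strand setting and the treatment of reads shared by several transcripts are not given in the sources used here.

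Symbols came from RefSeq accessions (82.0% of entries), positions from GENCODE on GRCm39, and promoters from RefSeq. The quasi-likelihood F-test of edgeR 4.0.16 (R 4.3.3, legacy=TRUE, TMM scaling) was run on the counts (entries above 1 CPM in at least 3 libraries, Benjamini-Hochberg over 13288 entries, threshold 0.05). The 4 groups were fitted together for diets. For depots and the difference of responses the mouse was a block, because SAT and VAT came from the same mouse by the column names. The correlation of deviations from the group mean was -0.00901 to 0.173 in 8 same-mouse pairs and -0.154 to 0.121 in 24 others. SE is the log2 difference over the square root of F. TMM factors ran from 0.788 to 1.25. Alternatives were RLE size factors, no filter, filterByExpr, legacy=FALSE, DESeq2 1.42.0, limma 3.58.1 voom, counts summed per symbol, single tissues, block changes, and each mouse left out. The fit without both mice of the shallowest VAT libraries was added after seeing the data. Tables and figures used Python 3.11.15, pandas 2.3.3, numpy 2.4.6 and matplotlib 3.10.9.

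The members, lists and tests were chosen with earlier results of these data known. Named genes are all 9 members, list members called in any comparison, and the 10 entries most correlated with the mean member level. Mrgprb1, Mrgprb2, Slc18a2, Csf2rb and the mucosal proteases, named for reference, lie outside that rule and were chosen after their values were seen.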

Additional observations from a re-analysis of the deposited data

Results flagged for a closer look

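In 92 groups of 4 libraries the highest or lowest library was set against the others by its gap to the nearest one over the group's range, with Dixon's 95% critical value as the limit. Chance marks about 1 in 20 groups, and 8 were marked. Mcpt4 in obese SAT had a gap of 0.843 of the range, from mouse 4 at 56.4 CPM against 30.9 to 34.9 CPM in the others. Tpsb2 in obese VAT stood at 0.937 (mouse 2 at 0.986 CPM), and Tpsab1 in lean SAT at 0.851 (mouse 3, the lowest, at 0.475 CPM). Ms4a2 had a gap of 1 in lean SAT and of 1 in obese VAT, where a single library held all its counts, 1 and 2. Among IgE signaling genes Btk in obese SAT stood at 0.983 (mouse 2, the lowest, at 0.422 CPM), Plcg1 in obese SAT at 0.875 (mouse 4, the lowest, at 387 CPM) and Syk in lean VAT at 0.909 (mouse 1, the shallowest library, at 34.4 CPM from 54 counts). The diet response of Fcer1g differed between the depots by 0.937 on the log2 scale.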

How the results depend on the processing

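The upregulation of Cpa3, Cma1 and Mcpt4 in obese VAT was called in each of 18 alternatives (log2 1.39 to 1.90, 1.10 to 1.58 and 1.10 to 1.58, adjusted p at most 0.00654, 0.0235 and 0.0393), and the lower Mcpt4 and Cma1 of lean VAT in each of 17. Cpa3 in lean VAT against SAT was called in 5 of 17 (adjusted p 0.032 to 0.267). In SAT 1 mast cell entry, Cpa3, was called when only the tissue's libraries were fitted. With 1 mouse left out the count of calls ran from 0 to 2 between depots in obese mice (2 without obese mouse 2) and from 0 to 1 for the difference of responses (1, Mcpt4, without obese mouse 1). Without both mice of the shallowest VAT libraries it was 1 for the difference of responses (Mcpt4 1.10, adjusted p 0.0377). Direction turned in 4 of 428 values, all with 1 mouse left out: Kit between depots in lean mice ran from -0.63 to 0.48, and in obese mice Cpa3 ran from -0.23 to 0.22 and Hdc from -0.054 to 0.56 (-0.05 without mouse 2). The cause was not tested. Lean and obese mice share replicate numbers but no animal. Deviations from the group mean correlated at -0.0942 to 0.0545 in SAT and 0.0814 to 0.173 in VAT for same-numbered libraries. For libraries of different number the values were -0.106 to 0.112 in SAT and -0.146 to 0.104 in VAT. The medians in VAT were 0.121 for the same number and -0.0525 for different numbers. Between SAT and VAT of the same mouse the median was 0.0759. The reason for the likeness of same-numbered VAT libraries was not tested. With a replicate block the calls between diets stayed at 0 in SAT and 3 in VAT, Cpa3 at 1.71. Few counts of Kit, Hdc, the tryptases and the IgE receptor chains limit their values, and 4 of the 9 genes did not pass the filter for the test.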
